A study of Mus musculus with 88 samples.

Results

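Expression of 38 genes of glycolysis and glycogen metabolism, chosen by gene symbol from the 24453 annotated genes of a count table, was followed across 9 tissues of mice with and without Cdh15. The set holds the enzymes from glycogen phosphorylase and phosphofructokinase to lactate dehydrogenase, with the tissue isoforms of each step, and the subunits and regulators that act on glycogen. Polyadenylated RNA was sequenced from 5 male Cdh15 knockout (KO) mice and 5 male wild-type (WT) mice of the strain C57BL/6NTac, aged 65 to 85 days. All mice of both groups had been fasted for 18 h. Cdh15 encodes M-cadherin, an adhesion protein of muscle precursor cells and fibres, and the study's title names myofibre formation in the fetus as its subject. The labels give the genotype as knockout or wild type and do not describe the allele. From each mouse came 4 hindlimb muscles (soleus, extensor digitorum longus or EDL, gastrocnemius, tibialis), the heart, and 4 organs (kidney, liver, lung, spleen). Kidney and spleen had 5 KO and 4 WT libraries and every other tissue 5 of each, which made 88 libraries.

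Glycolysis splits glucose into pyruvate and yields ATP without oxygen, and lactate dehydrogenase then converts pyruvate to lactate or back. Glycogen is built on a glycogenin primer by glycogen synthase and branching enzyme, and is broken down by glycogen phosphorylase, which phosphorylase kinase switches on. Many of these steps have separate genes for a muscle form and for forms of liver, brain or most other cells, so the ratio of isoforms differs between tissues. Fast muscle fibres rely on glycogen and lactate formation, heart and slow fibres take up and oxidise lactate, and the liver stores glycogen and releases glucose.

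Libraries held 8.21 M to 25.1 M counts (M for mega), with a median of 19.02 M. Levels are given as the deposited RPKM (reads scaled to transcript length in kilobases and to library size), which puts genes of different length on 1 scale. The length behind these values was not constant between libraries for every gene. Relative to values computed with the annotated exon length, the deposited RPKM ran from 1.0 to 1.53 times for Pfkp and from 1.0 to 1.35 times for Pfkl. The range was 0.922 to 1.85 times for Pfkfb3, 1.019 to 1.389 times for Ugp2 and 0.709 to 0.892 times for Pfkfb2. Gpi1 varied likewise in liver and lung. Levels and isoform shares of these genes carry that spread while the counts used for tests do not. Tests used the deposited counts in edgeR, with p-values adjusted over all genes of a comparison and a threshold of 0.05. In the soleus, Cdh15 stood at 0.665 to 1.43 RPKM in KO mice and at 4.39 to 7.40 RPKM in WT mice (log2 fold change -2.77, SE 0.20, edgeR adjusted p = 0.00016). The summed marker genes of heart, kidney, liver, lung and spleen were higher in every library of the labelled tissue than in any library of another. In bulk tissue, fewer cells of a type and less RNA per cell cannot be told apart. Of the 38 genes, 27 had a count that was not whole in at least 1 library, and 11 did so in 50% or more of the libraries. These 11 were Gapdh, Aldoa, Ldha, Eno1, Pygm, Pygb, Pygl, Gpi1, Phkg1, Pfkfb2 and Pfkfb3, and their levels are less certain where near-identical copies or overlapping genes take a share of reads.

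In WT mice the muscle forms of these enzymes stood far higher in striated muscle than in the organs, while the liver forms Pygl and Pklr and the ubiquitous Pgam1 were lower there. The liver form Ppp1r3b averaged 56.4 RPKM in liver and 4.66 in heart, above lung (1.89), spleen (1.42) and kidney (0.438), and was lowest in the muscles. Not every ubiquitous or liver form followed: Gpi1, Tpi1, Pgk1 and Gapdh had their highest means in muscles, Pygb was highest in heart, and Pfkl had its highest mean in heart, with a range that overlapped kidney. The fructose-bisphosphate aldolase Aldoa had the highest level of all 38 genes, at 8197 ± 508 RPKM in gastrocnemius, and Gapdh followed at 5460.1 ± 332 RPKM in tibialis (mean ± SD, n = 5 WT mice each). By WT mean, 12 of the 38 genes were highest in gastrocnemius, 6 in tibialis, 3 in EDL and 2 in soleus. A further 3 were highest in heart, 4 in liver, 4 in spleen, 3 in kidney and 1 in lung. For most genes highest in a muscle the range overlapped that of the next tissue, so their order among muscles is not settled. Gys1, for example, averaged 139.3 RPKM in tibialis and 139.0 RPKM in soleus. The kidney count includes Eno1, whose level is uncertain and whose range overlapped liver.

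**Figure D1:**
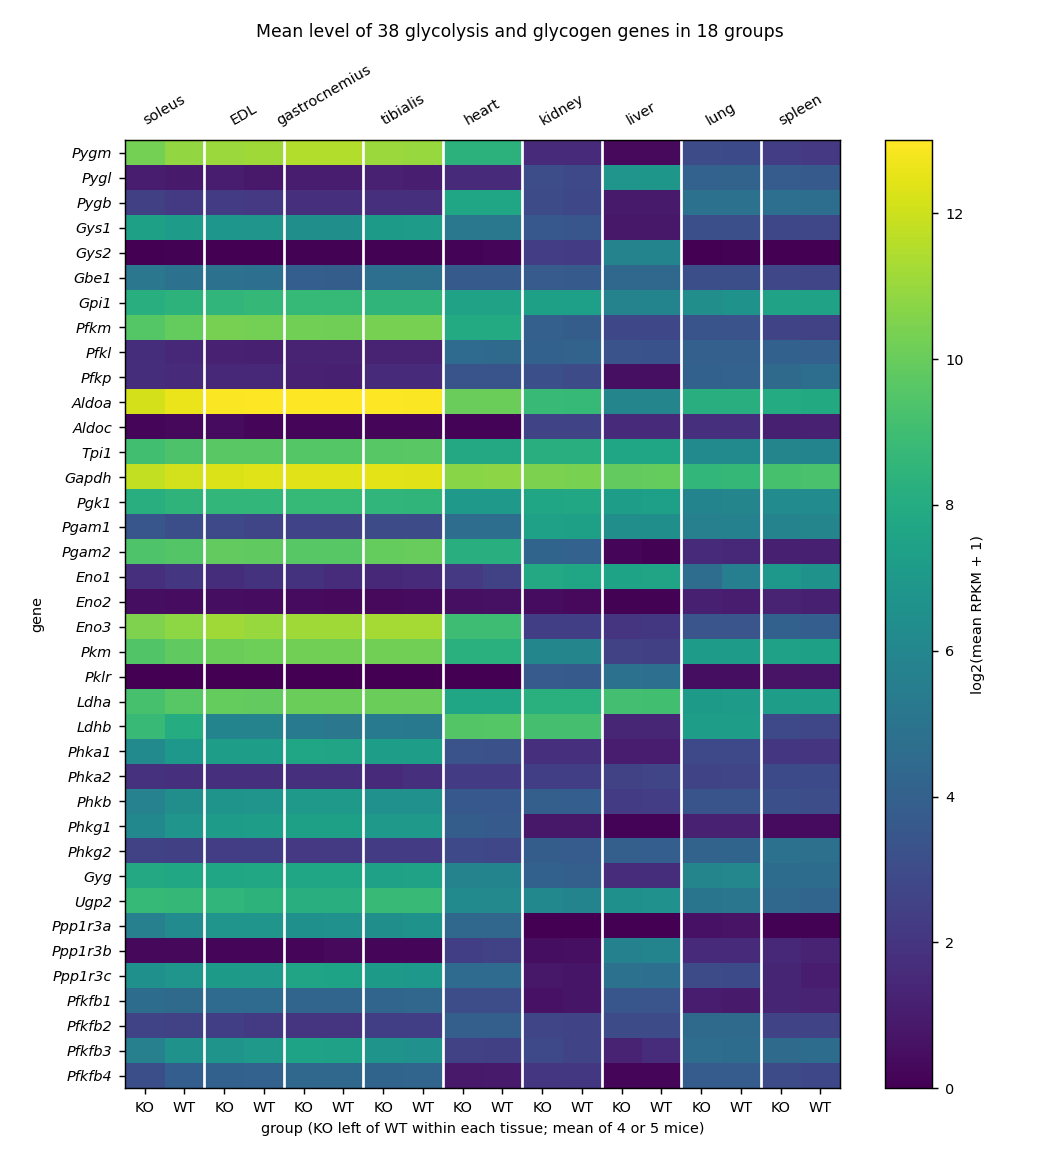
Colour gives log2(mean RPKM + 1) of each of the 38 genes (rows) in the 18 groups of tissue and genotype (columns, KO left of WT), each a mean over 4 or 5 mice. Within a tissue the KO and WT columns look alike except for Eno1 in lung and spleen and for the soleus, where for example Pygm averaged 1236 RPKM in KO mice and 1887 RPKM in WT mice.

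Against the mean of WT kidney, liver, lung and spleen, 26 of the 38 genes were higher in the 5 WT striated tissues and 11 were lower (edgeR over 43 WT libraries, adjusted p under 0.05). These libraries came from 5 WT mice. The fit, also used for the other comparisons of WT tissues, held no term for the mouse, so its p-values and SE treat the libraries as independent. Among all 16842 genes tested, 40.4% were higher and 43.9% lower. The median log2 fold change of the 38 genes was 2.68, beside -0.14 over all genes. Pygm, the muscle glycogen phosphorylase, ranged from 313 to 3017 RPKM in 25 WT striated libraries (median 2096) and from 0.126 to 7.44 RPKM in 18 WT organ libraries (median 2.53). Its log2 fold change was 10.47 (SE 0.10, edgeR adjusted p = 3.5e-49). Pfkm, the muscle phosphofructokinase that sets the pace of glycolysis, ranged from 239 to 1421 RPKM in striated libraries and from 3.37 to 14.6 RPKM in organ libraries. Eno3, the muscle enolase, ranged from 489 to 2537 RPKM in striated libraries and from 3.003 to 15.2 RPKM in organ libraries. Neither gene overlapped between the 2 kinds of tissue, and their log2 fold changes were 7.58 (SE 0.07) and 8.64 (SE 0.08). Aldoa was also separate, with 1039.9 to 8800.0 RPKM in striated libraries and 50.2 to 444 RPKM in organ libraries (log2 fold change 5.39, SE 0.06). Gyg, the glycogenin that primes new glycogen, ranged from 56.4 to 243 RPKM in striated libraries and from 1.92 to 69.5 RPKM in organ libraries (log2 fold change 4.26, SE 0.04), and the lung and heart libraries overlapped. Ppp1r3a, which anchors protein phosphatase 1 to muscle glycogen, ranged from 16.7 to 119.8 RPKM in striated libraries and from 0 to 0.746 RPKM in organ libraries. Kidney and liver libraries held few or no Ppp1r3a reads, so no fold is given.

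The start regions of 6 genes, chosen by hand, are printed to show the sequence around genes that differed together between tissues. Pygm, Pgam2, Eno3 and Ppp1r3a are muscle forms. Pgam1 is the ubiquitous counterpart of Pgam2, and Ldha is used in muscle and liver alike. Each window runs from 250 bases before to 50 bases after a RefSeq start site on GRCm38.p6, which has the coordinates of mm10. Capitals mark CAGCTG (an E-box of the type bound by MyoD), ACGTG (the core of the hypoxia response element) and the MEF2 motif, each searched on both strands. The windows are chr19:6384158-6384457 (+ strand) for Pygm, chr11:5803747-5804046 (- strand) for Pgam2, chr11:70656926-70657225 (+ strand) for Eno3, chr6:14755225-14755524 (- strand) for Ppp1r3a, chr19:41911621-41911920 (+ strand) for Pgam1 and chr7:46845554-46845853 (+ strand) for Ldha. The Ldha window was picked from 2 for its matches, lies upstream of the start in the deposited annotation, and the other window holds none of the motifs.
Pygm: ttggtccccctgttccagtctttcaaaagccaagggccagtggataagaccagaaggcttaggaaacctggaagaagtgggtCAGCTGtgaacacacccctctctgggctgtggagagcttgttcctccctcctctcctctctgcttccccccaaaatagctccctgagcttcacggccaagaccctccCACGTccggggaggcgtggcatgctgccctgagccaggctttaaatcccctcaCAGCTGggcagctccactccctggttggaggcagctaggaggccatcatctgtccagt
Pgam2: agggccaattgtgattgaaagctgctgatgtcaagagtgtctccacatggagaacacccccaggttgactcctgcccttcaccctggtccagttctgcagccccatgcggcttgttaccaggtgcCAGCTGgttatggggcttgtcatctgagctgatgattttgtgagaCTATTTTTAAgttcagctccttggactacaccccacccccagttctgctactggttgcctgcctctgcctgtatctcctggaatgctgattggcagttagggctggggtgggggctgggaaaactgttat
Eno3: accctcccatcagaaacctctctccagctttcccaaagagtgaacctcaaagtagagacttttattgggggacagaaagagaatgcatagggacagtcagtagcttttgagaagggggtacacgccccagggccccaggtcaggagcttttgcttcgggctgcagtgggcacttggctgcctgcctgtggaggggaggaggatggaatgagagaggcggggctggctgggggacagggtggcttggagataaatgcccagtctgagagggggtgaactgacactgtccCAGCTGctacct
Ppp1r3a: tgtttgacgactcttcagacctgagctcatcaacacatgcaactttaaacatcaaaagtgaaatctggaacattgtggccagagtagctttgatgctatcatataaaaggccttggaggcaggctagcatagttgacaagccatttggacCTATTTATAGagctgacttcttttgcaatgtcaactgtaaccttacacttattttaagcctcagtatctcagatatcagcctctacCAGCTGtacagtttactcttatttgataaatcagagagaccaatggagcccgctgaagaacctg
Pgam1: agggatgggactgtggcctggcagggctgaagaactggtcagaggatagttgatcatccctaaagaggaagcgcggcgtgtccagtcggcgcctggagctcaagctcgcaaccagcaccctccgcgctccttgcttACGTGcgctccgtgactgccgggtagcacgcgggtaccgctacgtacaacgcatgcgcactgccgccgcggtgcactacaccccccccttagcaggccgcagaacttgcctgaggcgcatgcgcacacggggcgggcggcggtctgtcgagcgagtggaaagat
Ldha: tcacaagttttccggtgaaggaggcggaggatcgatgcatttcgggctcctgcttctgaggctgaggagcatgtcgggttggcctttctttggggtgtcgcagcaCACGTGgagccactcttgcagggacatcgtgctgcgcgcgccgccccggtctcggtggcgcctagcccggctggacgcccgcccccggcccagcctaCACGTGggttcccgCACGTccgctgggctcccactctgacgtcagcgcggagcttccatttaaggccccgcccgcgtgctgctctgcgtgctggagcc

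The 4 muscle-form windows printed held CAGCTG, at -168 and -8 from the start site in Pygm, -125 in Pgam2, 38 in Eno3 and -14 in Ppp1r3a. Other muscle forms lacked it: no match lay in any of the 4 windows of Pfkm or in the window of Phkg1. The MEF2 motif stood at -80 in Pgam2 and -100 in Ppp1r3a. The Pgam1 and Ldha windows held ACGTG and no CAGCTG. Ldha has ACGTG at 3 places, of which 2 are the palindrome CACGTG and match on both strands, and Pygm has it once at -61. RefSeq windows were found for 36 of the 38 genes, 54 windows in all. CAGCTG was in 25.9% of those 54 windows and in 16.3% of all 32851 windows. ACGTG was in 37.0% of the 54 and in 19.6% of all, and the MEF2 motif in 5.6% and 3.2%. A match of letters is a description of the window only.

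The leading form of the glycogen enzymes differed from tissue to tissue. Pygm made up 99.75% ± 0.086 of the summed RPKM of Pygm, Pygl and Pygb in WT soleus and 61.8% ± 1.9 in WT heart (mean ± SD, n = 5 each). The rest of the heart's phosphorylase transcripts were Pygb, the brain form, at 37.8% ± 1.9. In WT liver 99% ± 0.13 were Pygl, the liver form, and in WT lung and spleen Pygb led with 54.7% ± 1.3 and 61.5% ± 4.6. Of the glycogen synthases, Gys1, the form of muscle and most other tissues, was nearly the whole sum in WT striated tissues, lung and spleen, with its lowest mean at 99.5% in lung. Its share was 71.1% ± 2.1 in WT kidney (n = 4) and 1.39% ± 0.36 in WT liver, where Gys2 took the rest.

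Phosphorylase kinase is built from α, β, γ and calmodulin subunits, and both the α and γ chains have a muscle and a liver gene. In WT gastrocnemius the muscle α gene Phka1 held 98.8% ± 0.17 of Phka1 and Phka2, and the muscle γ gene Phkg1 held 97.9% ± 0.28 of Phkg1 and Phkg2. In WT heart the shares were 67.3% ± 4.1 and 66.6% ± 4.6, and in WT liver 16.5% ± 2.6 and 0.801% ± 0.61 (n = 5 each). Among the subunits that target protein phosphatase 1 to glycogen, Ppp1r3c held between 53.1% and 65.1% on average in the WT muscles and Ppp1r3a nearly all of the remainder. Ppp1r3b, the liver-type subunit, held 67.5% ± 5.6 in WT liver and at most 0.112% on average in the WT muscles.

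The glycolytic steps showed the same division. Pfkm held 99.62% to 99.78% of the phosphofructokinase sum on average in the WT muscles and 89% ± 1.3 in WT heart. Pfkl, the liver form, led in WT kidney (44.2% ± 3.5, n = 4) and liver (57.8% ± 2.8). Pfkp, the platelet form, led in WT spleen (55.2% ± 11, n = 4). The length behind Pfkp RPKM ran from 2633 to 4033 bases among those 4 spleens, and with the annotated exon length in all of them, a setting chosen after the data were seen, the share was 50.3% ± 7.1. Pfkp stood close to Pfkl in WT lung, at 39.9% ± 2.4 and 37.4% ± 1.4. Pgam2, the muscle phosphoglycerate mutase, held 98.9% or more on average in the WT muscles, 91.9% ± 0.8 in WT heart and 0.04% ± 0.038 in WT liver. Pkm was nearly the whole pyruvate kinase sum outside kidney and liver, where Pklr held 16.9% ± 2.3 and 85.3% ± 2.3.

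Lactate dehydrogenase was the family with the widest range among muscles. The subunit gene Ldha, whose product favours lactate formation, held 96.9% ± 0.44 of Ldha and Ldhb in WT gastrocnemius, 96.7% ± 0.72 in WT tibialis, 94.4% ± 1.3 in WT EDL and 74.6% ± 7.6 in WT soleus. In WT heart it held 21% ± 0.71, in WT kidney 34.1% ± 0.39 (n = 4), in WT lung 48.7% ± 4.1, in WT spleen 96.1% ± 0.97 (n = 4) and in WT liver 99.70% ± 0.067. Ldhb, the heart subunit, was the leading form in WT heart and kidney, and in WT lung, with 51.3% ± 4.1, it stood level with Ldha within the spread. The PFKFB genes make and remove fructose 2,6-bisphosphate, the strongest activator of phosphofructokinase. Pfkfb3, the inducible form, held between 67.7% and 80.7% on average in the WT muscles, Pfkfb2, the heart form, 52.9% ± 4.8 in WT heart, and Pfkfb1, the form of liver and muscle, 51.6% ± 3.8 in WT liver. With the annotated exon length in every library Pfkfb2 held 60.6% ± 3.8 in WT heart, and Pfkfb1 held 45.7% ± 3.4 in WT liver, where Pfkfb2 held 43.8% ± 4.3.

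**Figure D2:**
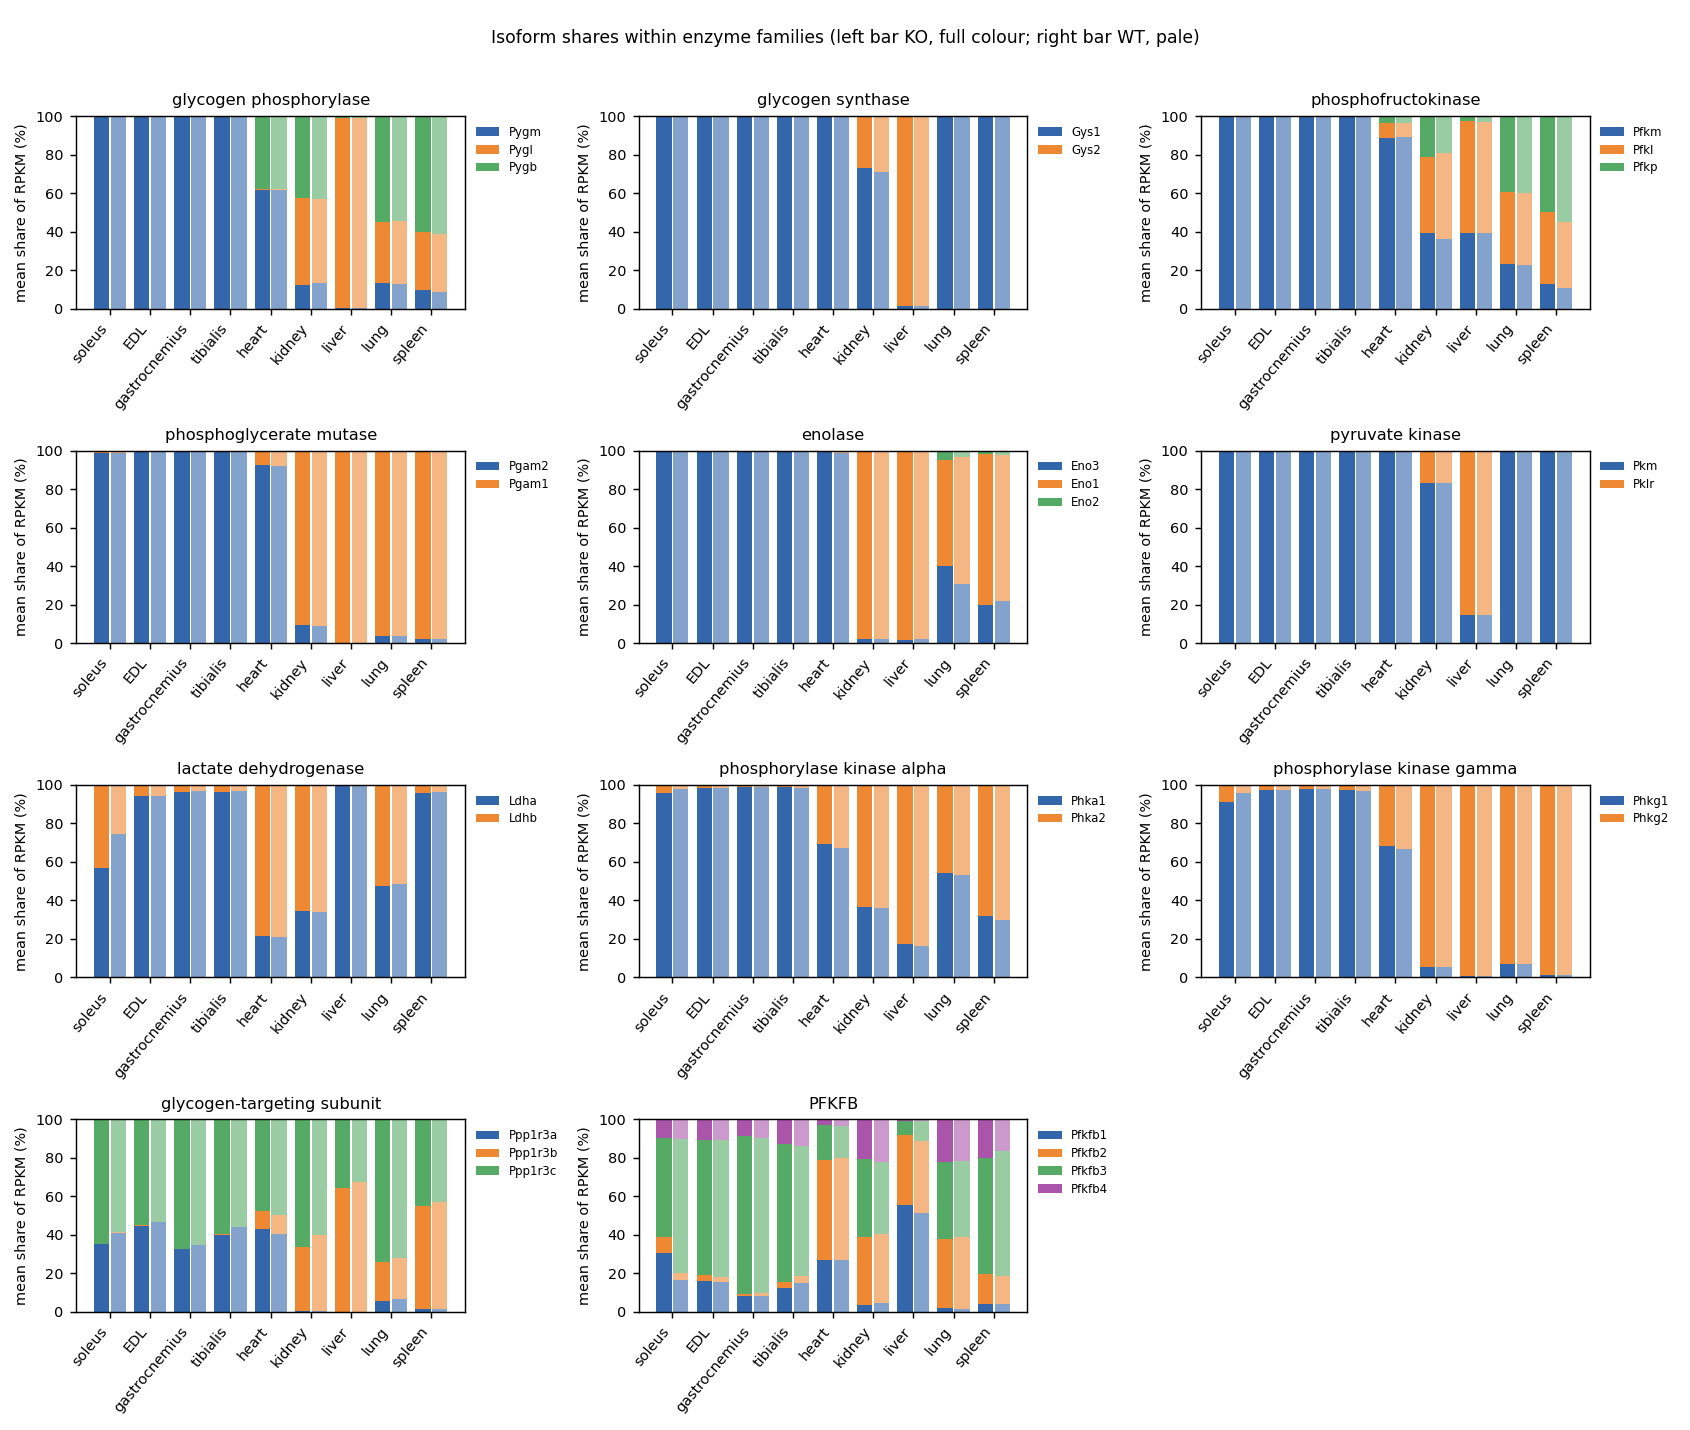
Stacked bars give the mean share (%) of each gene in the summed RPKM of its enzyme family, for the families drawn, in 9 tissues (left bar KO, right pale bar WT; 4 or 5 mice per bar). Bars of the same tissue are alike for KO and WT except in the soleus, where Ldha averaged 57.0% in KO mice and 74.6% in WT mice, and for Eno1 in lung and spleen, whose reads are split with a copy.

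In heart, against the mean of the 4 WT muscles, 11 of the 38 genes were higher and 24 lower (edgeR), while 39.0% of all genes were higher and 34.0% lower. The median log2 fold change of the 38 genes was -1.85, beside 0.08 over all genes. Pygb stood at 199, 192, 188, 228 and 179 RPKM in the 5 WT hearts and at 1.92 to 4.28 RPKM in 20 WT muscle libraries. Its log2 fold change of 5.70 (SE 0.07, edgeR adjusted p = 3.4e-44) had the smallest p of the set. Pfkl stood at 19.6, 28.1, 19.7, 19.0 and 21.8 RPKM in WT hearts and at 0.976 to 1.92 RPKM in WT muscle libraries (log2 fold change 3.45, SE 0.06). Ppp1r3b stood at 4.99, 4.12, 4.06, 4.35 and 5.75 RPKM in WT hearts and at 0.0787 to 0.299 RPKM in WT muscle libraries (log2 fold change 4.39, SE 0.13). In these 3 genes every heart library was above every muscle library.

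The phosphorylase kinase genes Phka1 and Phkb were lower in heart. Phka1 stood at 9.65, 9.10, 8.01, 6.94 and 7.42 RPKM in WT hearts and at 82.2 to 196 RPKM in WT muscle libraries, a log2 fold change of -4.51 (SE 0.14, edgeR adjusted p = 4e-29). Phkb, the β subunit, stood at 10.4, 10.8, 10.6, 11.7 and 11.4 RPKM in WT hearts and at 59.5 to 137 RPKM in WT muscle libraries (log2 fold change -3.59, SE 0.10). Aldoa was lower as well (log2 fold change -3.12, SE 0.09), at 1039.9 to 1112 RPKM in WT hearts and 4855 to 8800.0 RPKM in WT muscle libraries, and none of these 3 genes overlapped. Ldhb ran the other way, with 751 ± 9.51 RPKM in WT heart and 261 ± 57.1 RPKM in WT soleus (log2 fold change of heart against the 4 muscles 3.16, SE 0.10). Beside these, Pfkfb4 had a log2 fold change of -4.59 (SE 0.16) and Pfkfb3 one of -5.46 (SE 0.36), the lowest of the 38 genes.

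Soleus, the slow postural muscle, had less of the muscle forms of glycolysis and of the phosphorylase cascade than the other 3 muscles, and more Ldhb. In WT mice 17 of the 38 genes were lower in soleus than in the mean of EDL, gastrocnemius and tibialis and 7 were higher (edgeR), while 7.55% of all genes were lower and 10.5% higher. The median log2 fold change of the 38 genes was -0.23, beside -0.01 over all genes. Ldhb had by far the greatest difference, with 353, 226, 275, 207 and 244 RPKM in the 5 WT soleus libraries and 25.4 to 71.2 RPKM in 15 libraries of the other muscles (log2 fold change 2.55, SE 0.10, edgeR adjusted p = 2.7e-22). The 2 sets did not overlap. The genes lower in soleus were Pfkm, Gpi1, Aldoa, Tpi1, Gapdh, Pgk1, Pgam2, Eno3, Pkm, Ldha and Pfkfb4 of glycolysis and Pygm, Phka1, Phkb, Phkg1, Ppp1r3a and Ppp1r3c of glycogen metabolism. Aldoa had a log2 fold change of -0.47 (SE 0.07), Pkm of -0.48 (SE 0.08), Pfkm of -0.46 (SE 0.08) and Ldha of -0.48 (SE 0.09). Gpi1 (-0.30, SE 0.06), Pgk1 (-0.28, SE 0.08), Tpi1 (-0.39, SE 0.07) and Gapdh (-0.41, SE 0.09) differed less, and the RPKM of soleus and the other muscles overlapped for these 4. Aldoa ranged from 4855 to 6994 RPKM in soleus and from 7429 to 8800.0 RPKM in the other muscles, without overlap. Pkm also did not overlap, with 691 to 1021 RPKM in soleus and 1087 to 1266 RPKM in the others. Phkb (log2 fold change -0.52, SE 0.08), Pfkm and Ldha overlapped. Gys1, Gbe1 (the glycogen branching enzyme), Pgam1, Pygb, Pfkl and Pfkfb2 were the other 6 that were higher in soleus, with log2 fold changes of 0.21 to 0.30. Leaving out WT mouse 3793543 cut the count of higher genes to 2, and leaving out WT mouse 3793553 to 3. The 10.5% and 7.55% of all genes are of the fit with all WT mice, and the shares in these refits are not given here.

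In liver, against the mean of WT kidney, lung and spleen, 20 of the 38 genes were higher and 15 lower (edgeR), while 36.9% of all genes were higher and 44.6% lower. The median log2 fold change of the 38 genes was 0.53, beside -0.24 over all genes. Gys2, the liver glycogen synthase, stood at 56.2, 57.5, 56.8, 59.4 and 52.0 RPKM in WT livers and at 0 to 4.43 RPKM in 13 libraries of the other organs. Kidney averaged 4.05 ± 0.332 RPKM (n = 4), and no fold is given because lung and spleen held few or no reads. Pygl stood at 105, 122, 118, 113 and 130.2 RPKM in WT livers and at 4.60 to 17.4 RPKM in the other organs (log2 fold change 4.52, SE 0.12, edgeR adjusted p = 1.9e-31). Ppp1r3b stood at 35.1, 54.6, 53.2, 69.3 and 69.7 RPKM in WT livers and at 0.393 to 2.23 RPKM in the others (log2 fold change 6.87, SE 0.12). Ppp1r3c (log2 fold change 5.11, SE 0.12), Pfkfb1 (4.47, SE 0.11) and Ugp2, which makes the UDP-glucose used by glycogen synthase (2.61, SE 0.07), were higher without overlap as well. Among the genes lower in liver, Ldhb had a log2 fold change of -4.45 (SE 0.17), Pfkp one of -3.68 (SE 0.14) and Pkm one of -3.49 (SE 0.10). When libraries were scaled by their total alone, 13 genes were higher and 22 lower in liver, and the median turned to -0.62 for the 38 genes and -1.36 over all genes. The shares of all genes called with that scaling are not given here. The same scaling, which is that of RPKM, put the median of all genes at -0.96 for striated tissues against organs, 0.43 for heart against muscles and 0.10 for soleus against the other muscles, so the edgeR fold changes between tissues are relative to TMM scaling, which sets libraries level on the bulk of their genes, and differ from ratios of RPKM.

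Another 30 genes of the same pathways, chosen with earlier results of these data known, were counted for comparison. In the striated tissues 21 of the 30 were higher and 7 lower than in the organs (edgeR), beside 40.4% and 43.9% of all genes. Slc2a4, the insulin-responsive glucose transporter, ranged from 83.9 to 188 RPKM in WT striated libraries and from 0 to 5.61 RPKM in WT organ libraries. Hk2, the muscle hexokinase (log2 fold change 6.24, SE 0.09), did not overlap either. In WT heart 8 of the 30 were higher and 17 lower than in the WT muscles, beside 39.0% and 34.0% of all genes. Slc16a3, the lactate exporter MCT4, stood at 0.339 to 0.595 RPKM in WT hearts and 62.1 to 169.7 RPKM in WT muscle libraries, a log2 fold change of -8.34 (SE 0.18). Hk1 was higher in heart by a log2 fold change of 3.26 (SE 0.08). In WT soleus 5 of the 30 were higher and 11 lower than in the other muscles, beside 10.5% and 7.55% of all genes. Stbd1, which tethers glycogen to membranes, was lower there (log2 fold change -0.93, SE 0.10), as was Slc16a3 (-0.75, SE 0.11), and Slc16a1, the lactate importer MCT1, was higher (0.63, SE 0.10). In WT liver 16 of the 30 were higher and 10 lower than in the other organs, beside 36.9% and 44.6% of all genes. Among those higher were Gpd1, glycerol 3-phosphate dehydrogenase (log2 fold change 4.79, SE 0.10), and the phosphoglucomutase Pgm2 (3.30, SE 0.08). Gpd1 averaged 188 ± 17.1 RPKM in WT liver, 136 ± 5.91 RPKM in WT kidney, 12.8 ± 0.893 RPKM in WT lung and 1.90 ± 0.376 RPKM in WT spleen, so most of its fold came from lung and spleen. Fbp1, the gluconeogenic fructose bisphosphatase, ranged from 442 to 609 RPKM in WT livers and from 0 to 668 RPKM in the other organs, with kidney as high as liver.

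Eno1, the ubiquitous enolase, could not be measured on its own. Its reads are divided with Eno1b, a near-identical copy, and the division changed between libraries of 1 tissue. In lung, Eno1 ranged from 5.49 to 51.5 RPKM in 5 KO libraries and from 4.27 to 79.0 RPKM in 5 WT libraries. The sum of Eno1 and Eno1b in the same libraries ranged only from 84.2 to 93.3 RPKM in KO mice and from 83.1 to 105 RPKM in WT mice. In spleen, Eno1 ranged from 10.7 to 228 RPKM in KO mice and from 6.32 to 141 RPKM in WT mice, while the sum ranged from 175 to 233 RPKM in KO mice and from 139 to 231 RPKM in WT mice. In all 57 libraries with under 300 Eno1 counts, the count was a whole multiple (within 0.01) of 13.98, from 1 to 18 times. With Eno1b added to the sum, the share of the muscle enolase Eno3 was 9.91% in KO lung and 9.65% in WT lung, and 90.4% in KO heart and 90.3% in WT heart.

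**Figure D3:**
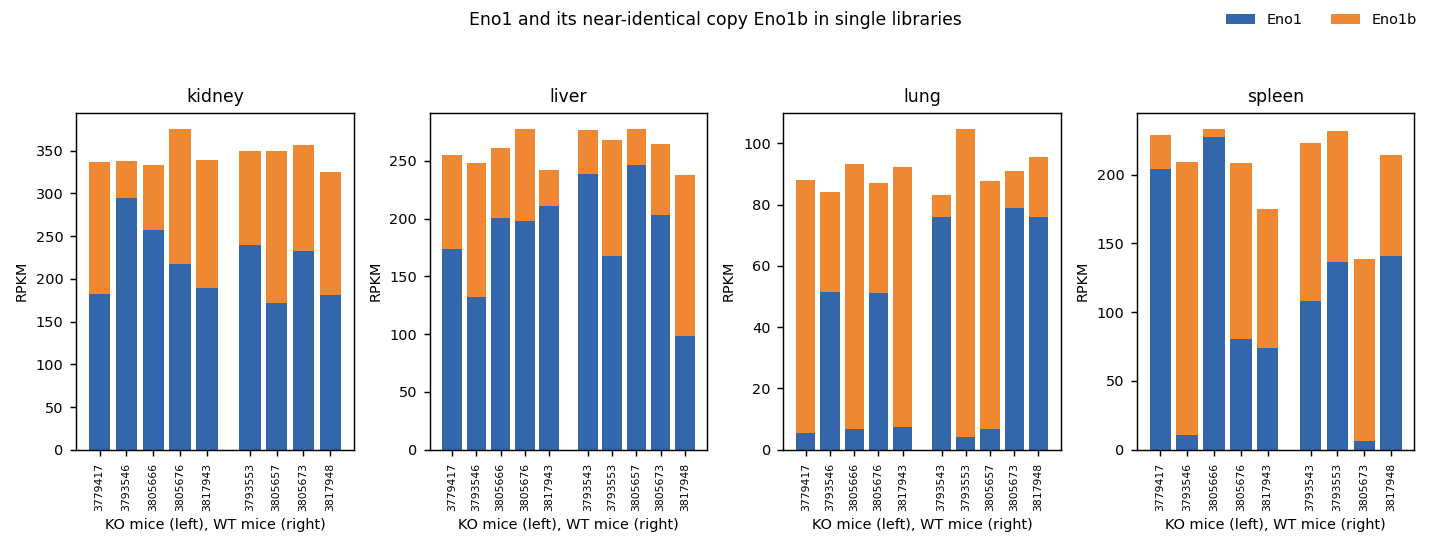
Stacked bars give the RPKM of Eno1 and of its copy Eno1b in each kidney, liver, lung and spleen library (KO mice left of WT mice). In lung the stacks stay between 83.1 and 105 RPKM while the boundary moves, between 4.27 and 79.0 RPKM of Eno1 in WT mice.

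In the soleus, the KO mice had lower mean levels of the muscle forms of glycolysis and of the phosphorylase cascade and a higher mean level of Ldhb, but none of the 35 genes tested passed the threshold. Of all 12965 genes tested in edgeR, 0.00771% passed, which was Cdh15 alone. At an unadjusted p under 0.05 stood 12 of the 35, beside 17.2% of all genes. Of the 35 log2 fold changes 14 were positive, and their median was -0.29 beside 0.02 over all genes. The median was smaller in size when Eno1 was summed with its copy Eno1b. That count of 12 became 3 without WT mouse 3805673, 4 without WT mouse 3793553, 7 without WT mouse 3805657, 20 without WT mouse 3793543 and 21 without KO mouse 3793546. The 17.2% of all genes is of the fit with all mice, and the shares of all genes in these refits are not given here. The DESeq2 Wald test called 2 genes, Ldhb (log2 fold change 0.72, adjusted p = 0.0248) and Pfkfb4 (-0.88, adjusted p = 0.0393), where it called 3.46% of the 4217 genes it gave an adjusted p. Gys2, Aldoc and Pklr fell under the count filter.

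Ldhb stood at 367, 342, 728, 442 and 387 RPKM in the KO soleus and at 353, 226, 275, 207 and 244 RPKM in the WT soleus (log2 fold change 0.74, SE 0.20, edgeR adjusted p = 0.238). The highest WT library lay within the KO range, and the KO library at 728 RPKM, of mouse 3805666, stood far above the others. Pfkfb4, the testis-type PFKFB form, stood at 8.01, 10.97, 3.56, 8.16 and 7.57 RPKM in KO and at 9.001, 14.95, 15.04, 15.5 and 13.8 RPKM in WT mice (-0.87, SE 0.27, edgeR adjusted p = 0.238). Only WT mouse 3793543 overlapped the KO mice. Pygm stood at 1278, 1580.2, 566, 1343 and 1412 RPKM in KO and at 1333, 2096, 1872, 2265 and 1868 RPKM in WT mice (-0.65, SE 0.26, edgeR adjusted p = 0.251). Again WT mouse 3793543 lay among the KO mice and KO mouse 3805666 below all others.

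Of the other named genes, the glucose phosphate isomerase Gpi1 stood at 279.5, 325, 218, 286 and 298 RPKM in KO and at 285, 356, 349, 372 and 348 RPKM in WT mice (log2 fold change -0.33, SE 0.13). The low-abundance forms Pfkl and Pygb were slightly higher on average in KO mice. Pfkl stood at 2.17, 2.10, 2.77, 1.88 and 2.14 RPKM in KO and at 1.71, 1.92, 1.75, 1.44 and 1.82 RPKM in WT mice (0.30, SE 0.11). Pygb stood at 4.28, 3.20, 4.96, 4.88 and 4.87 RPKM in KO and at 4.28, 3.55, 3.48, 3.08 and 3.34 RPKM in WT mice (0.27, SE 0.11). Both pairs of groups overlapped. In the phosphorylase kinase complex, Phka1 had a log2 fold change of -0.72 (SE 0.30), Phkb of -0.67 (SE 0.27) and Phkg1 of -0.73 (SE 0.36), while Phka2 and Phkg2 stood at 0.04 and 0.02. Gyg (-0.01, SE 0.07) and Ugp2 (0.05, SE 0.09), which prime and feed glycogen synthesis, had differences near 0, and Gys1 stood at 0.19 (SE 0.13).

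The soleus libraries also differed in fibre markers. The summed RPKM of the 10 fast-fibre markers, none of them at 0, ranged from 25452 to 52652 in KO mice (median 44811) and from 45544 to 66601 in WT mice (median 63055). The summed RPKM of the 8 slow-fibre markers ranged from 6911 to 20607 in KO mice (median 9147) and from 4232 to 8007 in WT mice (median 5219). Of the fast-fibre markers, the myosin Myh4 stood at 15.1 RPKM in KO mouse 3805666 and at 4533 to 6357 RPKM in the other 4 KO mice. In WT mice Myh4 stood at 4693 to 10858 RPKM. Myh1, another fast-fibre marker, did not follow, with 880.71 to 1770.29 RPKM in KO mice and 567.54 to 1843.72 RPKM in WT mice. KO mouse 3805666 had 1356.69 RPKM of Myh1. The myosin Myh2 ran the other way, with 1121.94 to 1781.11 RPKM in KO mice and 482.5 to 1306.89 RPKM in WT mice. The slow myosin Myh7 stood at 549 to 1552 RPKM in KO mice and at 309 to 683 RPKM in WT mice. Myh4 was thus near 0 in 1 KO library, and KO and WT ranges overlapped for each of these myosins. The part of fibre makeup in the enzyme differences was not tested. Without KO mouse 3805666 the median log2 fold change of the 35 genes was -0.19, and with log2 CPM of Myh4 as a covariate it was -0.13. With both changes it was 0.02, and Gpi1 stood at 0.01 (SE 0.09). Pygm stood at -0.02 (SE 0.09) and Pygb at 0.02 (SE 0.13) in that setting. Ldhb stood at 0.23 (SE 0.12), Pfkl at 0.24 (SE 0.15), Pfkfb4 at -0.18 (SE 0.13) and Pfkfb1 at 0.39 (SE 0.14). The edgeR adjusted p was 0.998 for each of the genes in the preceding sentence. That last setting was chosen after the data were seen. So was summing Eno1 with Eno1b, which without either change also gave a median of -0.13.

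**Figure D4:**
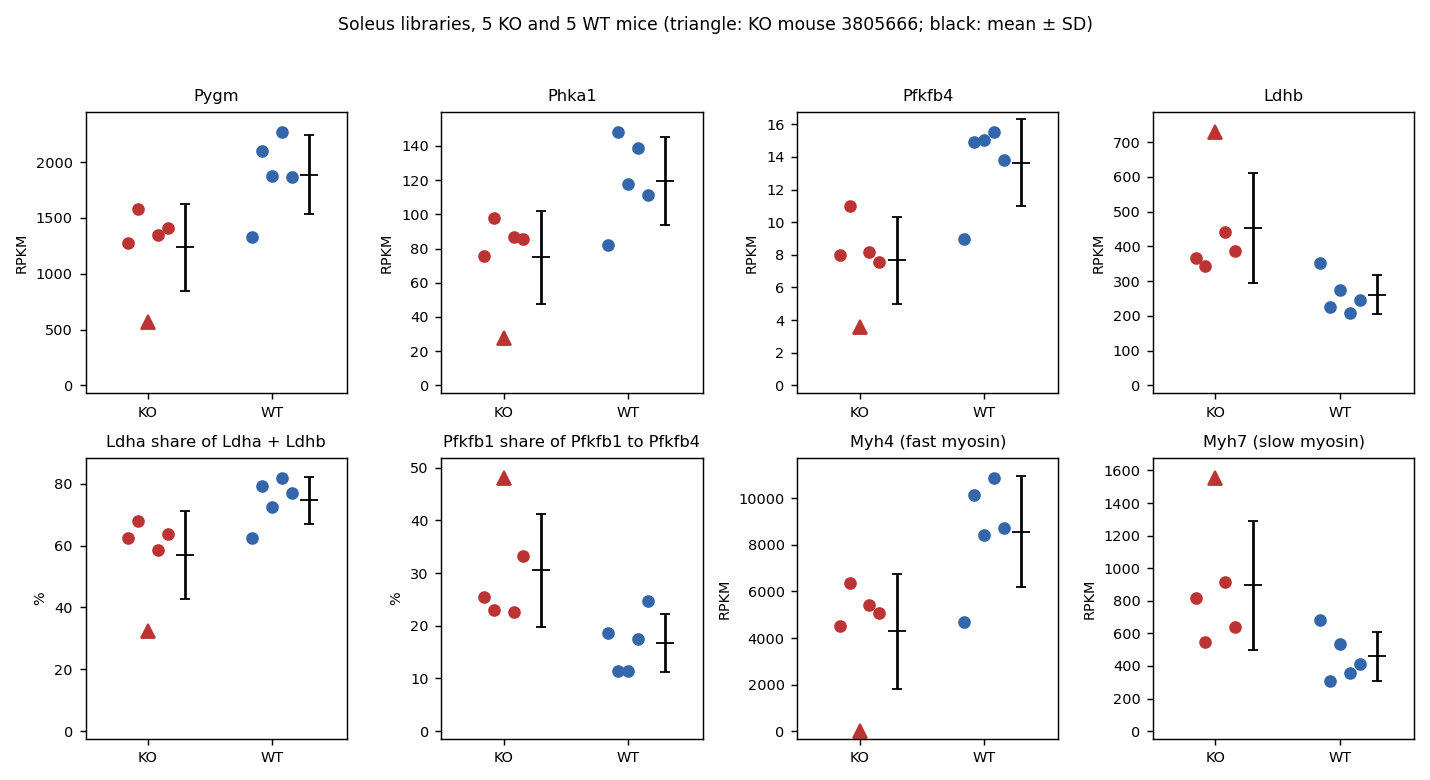
Points are single soleus libraries of 5 KO and 5 WT mice (KO mouse 3805666 as a triangle), with the mean ± SD beside them: RPKM of Pygm, Phka1, Pfkfb4, Ldhb, Myh4 and Myh7, and the shares (%) of Ldha and Pfkfb1 in their families. KO mouse 3805666 lies at the end of the range in each panel, for example at 566 RPKM of Pygm and 728 RPKM of Ldhb.

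The difference between the KO-WT change in soleus and the mean change in the other 3 muscles was tested over all 40 muscle libraries. Without a term for the mouse, edgeR called 0 of the 36 genes tested and 0% of all 13534 genes, the median difference of the 36 was -0.30 beside 0.03 over all genes, and 17 of the 36 had an unadjusted p under 0.05 beside 16.4% of all genes. The same mice gave all 4 muscles, and with the mouse as a block 15 of the 36 were called, all lower in the KO soleus relative to the other muscles, while 4.37% of all genes were called. The 15 were Pygm, Phka1, Phkb, Phkg1, Ppp1r3a, Ppp1r3c, Pfkm, Pfkfb4, Gpi1, Aldoa, Tpi1, Pgk1, Eno3, Pkm and Ldha. They cover the muscle forms of the phosphorylase cascade, 2 of the glycogen-targeting subunits, and the steps of glycolysis from glucose 6-phosphate to lactate except Gapdh (edgeR adjusted p = 0.0511) and Pgam2 (adjusted p = 0.362).

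Among them, Phka1 differed by -0.82 on the log2 scale (SE 0.19, edgeR adjusted p = 0.0278 with the mouse as a block, 0.0791 without). Pfkfb4 differed by -0.85 (SE 0.21, edgeR adjusted p = 0.0319 with the block, 0.0791 without) and Pygm by -0.66 (SE 0.17, 0.0302 with it, 0.0837 without). The remaining named genes were Phkb (-0.67, SE 0.18), Aldoa (-0.50, SE 0.12) and Pkm (-0.42, SE 0.10), each with an edgeR adjusted p under 0.05 with the block and between 0.0905 and 0.0951 without it. Ldhb stood at 0.63 (SE 0.22, edgeR adjusted p = 0.096 with the block). The synthesis genes Gys1, Gyg and Ugp2 stood at 0.16 (SE 0.09), 0.05 (SE 0.07) and 0.05 (SE 0.08), none of them called. Without the block, 12 genes were called when WT mouse 3793543 or KO mouse 3793546 was left out, and 0 when KO mouse 3805666 was left out. The shares of all genes called in these refits are not given here. No mouse was left out in the fit with the block, so its calls were not tried without KO mouse 3805666. Of the 30 other pathway genes 27 were tested and 7 were called with the block, all lower, beside 4.37% of all genes called. Among them were Gaa, the lysosomal glycogen-degrading enzyme (-0.46, SE 0.10), Pgm2 (-0.56, SE 0.14), Pgm2l1, Stbd1, Tigar and Slc16a3 (-1.02, SE 0.29).

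Among the isoform shares of KO and WT mice, no share passed adjustment over all tests of 12 families in 9 tissues (exact permutation of mice, two-sided). Ldha held 62.4%, 67.9%, 32.3%, 58.7% and 63.8% of its family in KO soleus and 62.4%, 79.3%, 72.7%, 81.8% and 76.9% in WT soleus. The KO mean was 57.0% and the WT mean 74.6%, a difference of -17.6 points (exact p = 0.0238, adjusted p = 0.514). Pfkfb1 held 25.5%, 23.0%, 48.0%, 22.7% and 33.3% of its family in KO soleus and 18.6%, 11.4%, 11.4%, 17.6% and 24.6% in WT soleus (exact p = 0.0238, adjusted p = 0.514). Pfkfb1 itself had a log2 fold change of 0.04 (SE 0.18), while Pfkfb3, at 4.79 RPKM in KO mouse 3805666 and 42.1 to 71.8 RPKM in the other KO mice, had one of -1.06 (SE 0.61). Pygm (99.5% in KO and 99.75% in WT), Pfkm (99.3% in KO and 99.62% in WT) and Phka1 (95.9% in KO and 97.96% in WT) also had unadjusted exact p under 0.05 in the soleus, and no share did in another tissue. KO and WT libraries overlapped for each of these 5 shares.

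With each mouse as its own control, the Ldha share in soleus lay 38.8 ± 14.2 points below the mean of the other 3 muscles in KO mice and 21.4 ± 7.67 points below it in WT mice (SD, n = 5 each). The exact permutation p was 0.0238 and the p adjusted over 12 families 0.0714. Pfkfb1 lay 18.4 ± 10.9 points above the other muscles in KO mice and 3.60 ± 2.38 points above in WT mice. Its exact p of 0.00794 was the smallest that 252 relabellings can give (adjusted p = 0.0714). None of the 12 families passed, 5 had an unadjusted exact p under 0.05, and 2 passed without KO mouse 3793546.

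In the other 3 muscles the levels of KO and WT mice were close. No gene of the set passed in EDL, gastrocnemius or tibialis in edgeR or DESeq2, where edgeR called 0.00777%, 0.00792% and 0.00810% of all genes, in each case Cdh15 alone. At an unadjusted p under 0.05 stood 1 of 36 genes tested in EDL, 0 of 35 in gastrocnemius and 0 of 33 in tibialis, beside 4.58%, 1.95% and 1.77% of all genes. The median log2 fold changes were 0.02 in EDL, 0.02 in gastrocnemius and 0.01 in tibialis. In EDL, Pfkfb2 stood at 5.54, 3.84, 4.36, 4.03 and 3.80 RPKM in KO and at 4.05, 2.90, 4.39, 3.83 and 3.12 RPKM in WT mice (log2 fold change 0.27, SE 0.11, edgeR adjusted p = 0.986). Pygb (0.15, SE 0.08) and Eno3 (0.14, SE 0.08) came next in EDL. In gastrocnemius the smallest p belonged to Ldhb, at 38.006, 33.9, 45.8, 32.8 and 41.0 RPKM in KO and 36.9, 36.6, 31.9, 38.9 and 27.0 RPKM in WT mice (0.18, SE 0.10), then Eno2 (0.34, SE 0.20) and Phka1 (0.08, SE 0.06). In tibialis it belonged to Phka2, at 1.83, 1.99, 2.29, 1.80 and 1.91 RPKM in KO and 2.32, 1.82, 2.62, 2.42 and 2.44 RPKM in WT mice (-0.21, SE 0.10), then Ppp1r3a (-0.11, SE 0.10) and Gapdh (0.06, SE 0.06). All of these groups overlapped.

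**Figure D5:**
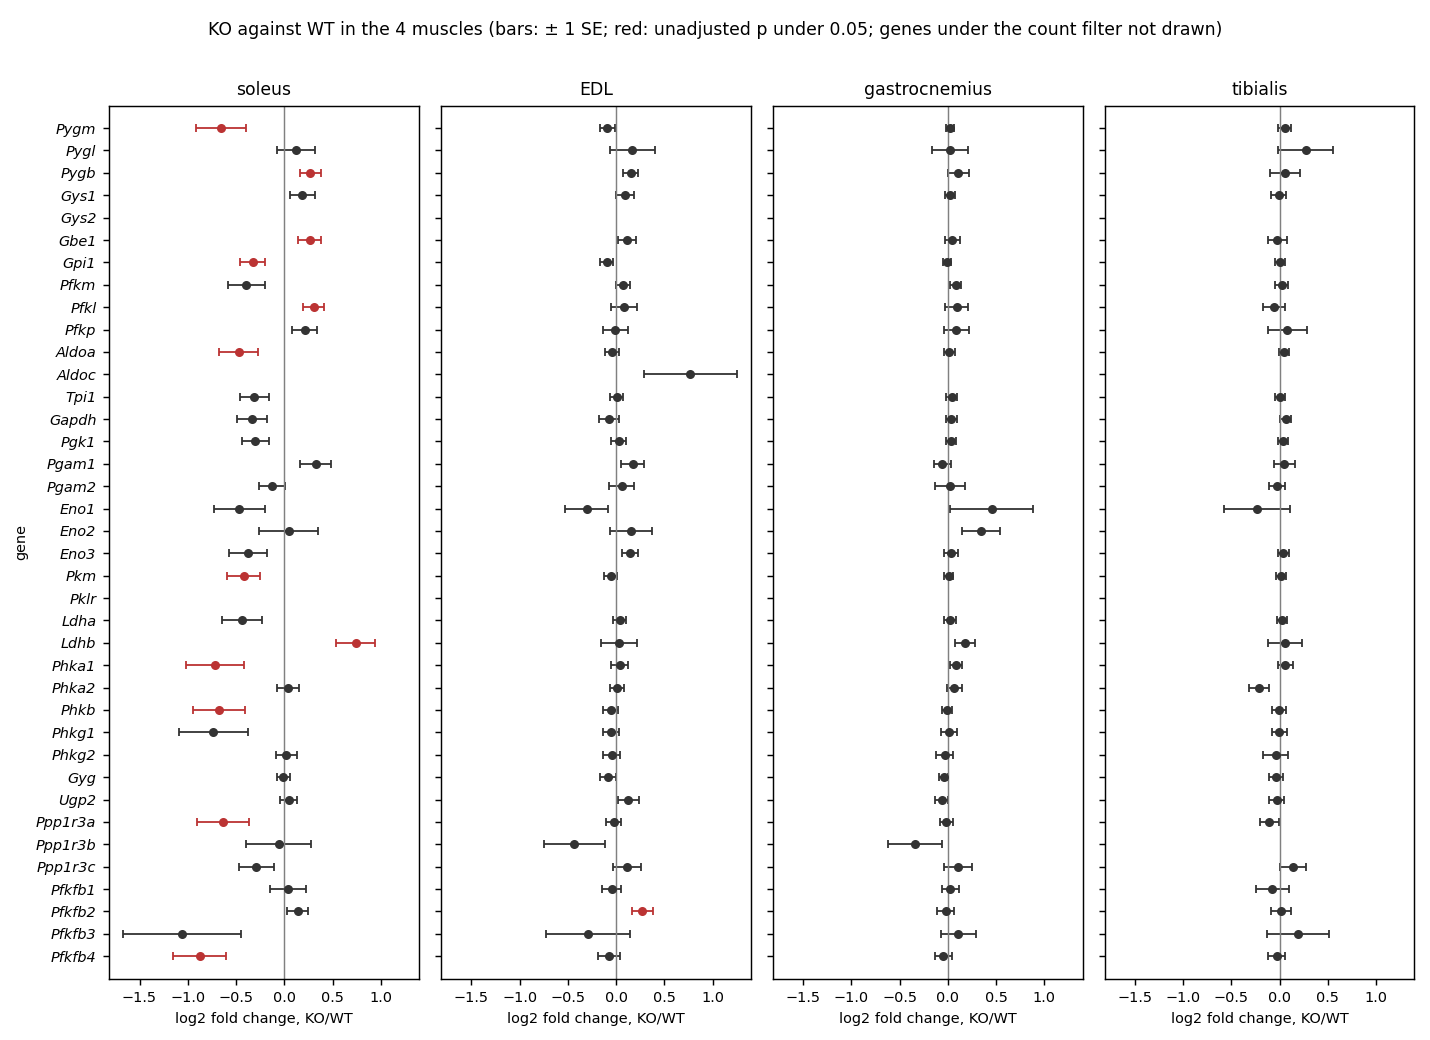
Points give the log2 fold change of KO over WT (edgeR, bars ± 1 SE) of each gene tested in the 4 muscles, with unadjusted p under 0.05 in red. In soleus the points spread from -1.06 (Pfkfb3) to 0.74 (Ldhb) and in gastrocnemius and tibialis most lie near 0.

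Heart and the 4 organs gave no call among the 38 genes in edgeR or DESeq2, and edgeR called 0% of all genes in each. At an unadjusted p under 0.05 stood 0 of 35 genes tested in heart, 1 of 37 in kidney, 0 of 33 in liver, 0 of 37 in lung and 0 of 35 in spleen. Over all genes the shares were 3.13%, 3.35%, 1.57%, 2.06% and 0.846%. The median log2 fold changes lay between -0.02 in lung and 0.02 in spleen. In kidney, Eno2, the neuronal enolase, stood at 0.332, 0.433, 0.254, 0.361 and 0.393 RPKM in KO and at 0.163, 0.294, 0.219 and 0.310 RPKM in WT mice (log2 fold change 0.57, SE 0.24, edgeR adjusted p = 0.9996). Kidney Pfkm was at 0.12 (SE 0.06). In heart, Ppp1r3a stood at 18.7, 19.4, 21.2, 20.2 and 20.5 RPKM in KO and 17.9, 20.5, 16.7, 18.7 and 18.3 RPKM in WT mice (0.12, SE 0.06), and Eno1, whose level is uncertain, at -0.44 (SE 0.26). In liver, Pklr, the liver pyruvate kinase, stood at 31.5, 25.9, 24.3, 24.4 and 33.4 RPKM in KO and 22.8, 25.3, 26.0, 27.4 and 27.3 RPKM in WT mice (0.12, SE 0.08), and Pfkfb3 at -0.63 (SE 0.43). In lung, Gyg (-0.10, SE 0.06) and Ppp1r3c (0.11, SE 0.08) had the smallest p, and in spleen Ppp1r3c (0.43, SE 0.22) and Ppp1r3b (0.27, SE 0.16). KO and WT ranges overlapped for each of them.

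Of the 30 other pathway genes none passed the edgeR threshold in any tissue, and 5 of 27 tested had an unadjusted p under 0.05 in the soleus, close to the 17.2% of all genes. Among these 5 were Gaa (log2 fold change -0.42, SE 0.14) and Gsk3b, a kinase that inhibits glycogen synthase (-0.33, SE 0.12). The median over the 27 was -0.21. In EDL Mpc2, a subunit of the mitochondrial pyruvate carrier, stood at 0.38 (SE 0.10, edgeR adjusted p = 0.986).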

How the data were processed

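The authors deposited estimated counts per gene (expected counts, 85.55% of them whole) and RPKM values for the same libraries. The genome build is mm10, per the submitters' processing notes. The aligner and counter are not given in the sources used here, nor is how the lengths behind the deposited RPKM were set. Per the labels' protocols, polyadenylated RNA was made into stranded libraries. The 22 marker sequences that name no gene took at most 0.0323% of a library's counts and were left out. Expected counts were rounded and tested with the quasi-likelihood test of edgeR 4.0.16 (R 4.3.3; TMM scaling, a count minimum of 10, Benjamini-Hochberg adjustment over all genes). DESeq2 1.42.0 was an alternative. The edgeR test, run per tissue, on WT libraries or on all muscle libraries, was tested on simulated data. The simulated libraries were drawn independently, with no shared mouse, and the outcome is not given here. The fit with the mouse as a block was not simulated. Isoform shares came from RPKM and were compared with two-sided exact permutation tests, which can give no p under 0.00794 with 5 against 5 mice.

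The members, lists and tests were chosen with earlier results of these data known. Named genes are those with the smallest p in each comparison, 6 for the soleus, tissue and soleus-difference comparisons, 3 for each other muscle and 2 for heart and each organ. Genes of the set named outside that rule were chosen after their values were seen. Pairing comes from the labels, which give a mouse number. Over 60 pairs of muscles of the same mouse, deviations from the group means correlated with a mean r of 0.262, above 0.1 in 50 pairs. No 2 replicate libraries agreed within sampling noise. Each mouse is a separate animal. Results for a few other pathway genes are not reported here.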

Additional observations from a re-analysis of the deposited data

Results flagged for a closer look

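In 9 of 76 groups of 4 or 5 libraries the highest or lowest library stood apart from the rest by Dixon's test, which chance alone gives in about 1 of 20 groups. The values are given without explanation. In the KO soleus, mouse 3805666 had the highest Ldhb (727.772 RPKM, against 342.492 to 441.965 RPKM in the other 4 KO mice) and the lowest Phkb (22.857 RPKM, against 57.233 to 67.139 RPKM). The median log2 deviation of the genes from their WT mean was also lowest in that library, at -0.618, against -0.226 to -0.091 in the other KO soleus libraries. In the WT soleus, mouse 3793543 had the lowest Pfkfb4 (9.001 RPKM, against 13.8 to 15.504 RPKM) and the lowest Gpi1 (284.723 RPKM, against 347.846 to 372.264 RPKM).

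Libraries of other tissues stood apart as well. The WT EDL of mouse 3805657 had the highest Pygb (4.084 RPKM, against 3.272 to 3.502 RPKM). The KO heart of mouse 3805676 had the highest Eno1 (5.205 RPKM, against 2.775 to 3.412 RPKM), a gene that shares reads with Eno1b. The median log2 deviation was highest in the KO tibialis of mouse 3805676 (0.067, against -0.023 to -0.007) and lowest in the WT liver of mouse 3793543 (-0.099, against 0.017 to 0.063).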

How the results depend on the processing

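Of the summary values recomputed under other settings, 428 kept their direction and call or stayed close, and 10 moved. Of the single-gene values 750 kept both, 20 became significant and 1 turned its direction. DESeq2 called 2 genes in the soleus. With Myh4 as a covariate and without KO mouse 3805666, a setting chosen after the data were seen, the soleus median was 0.024 and Gpi1 turned to 0.01. With the mouse as a replicate block the soleus difference called 15 genes, and the block moved no other count of calls past 1.5 times. Scaling by library total alone gave 13 genes higher in WT liver. Leaving out 1 mouse at a time gave 0 to 12 calls in the soleus difference without the block, and 2 to 6 genes higher in WT soleus. It gave 0 to 2 isoform shares per mouse and a gastrocnemius median of 0.000 to 0.056, and the cause was not tested. The shares of all genes in these refits are not given here. Summing Eno1 with Eno1b, also chosen after the data were seen, gave a soleus median of -0.13. Genes with few reads in a tissue could not be tested for KO against WT there. Gys2 and Pklr fell under the count filter in all 4 muscles, and Aldoc did in all but EDL.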
